A study of Mus musculus with 6 samples.

Results

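Nitric oxide, ornithine, itaconate, prostaglandins and kynurenine are small molecules that myeloid cells make from amino acids, citrate cycle intermediates and membrane lipid, through enzymes whose genes respond strongly to the cell's surroundings. The 10 genes described here act in these pathways: Nos2, Arg1, Arg2, Ass1, Slc7a2, Irg1 (the older name of Acod1), Ptgs1, Ptgs2, Ptges and Ido1. They were picked by gene symbol from a proposal made with earlier results of these data known, and all 10 were found among the 27634 genes of the deposited table. RNA-seq was made from cells labelled cancer-associated dendritic cells, taken from C57BL/6 mice that carried ID8-Defb29/Vegf-a tumours, an ovarian cancer line engineered to express a beta-defensin and a vascular growth factor. Mice received 100 µg of siRNA in rhodamine-conjugated polyethylenimine particles, while tumours grew for 32 to 38 days, and the labels give the same span for the treatment. Satb1, the target, encodes a chromatin-organising protein, and the title of the series concerns its overexpression in these cells.

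The labels describe a pair of experiments, named here for how far Satb1 was downregulated. The strong experiment has 2 libraries of Satb1 siRNA and 2 of non-targeting (NT) siRNA, and the weak experiment has 1 library of Satb1 siRNA and 1 of NT siRNA. All 6 libraries come from tumour-bearing mice of the same strain, so none shows the genes in tumour-free mice, and every control also received particles with siRNA. The sorting of the cells and the number of mice behind the repeats are not known from the labels. Repeats of a group differed by little more than sampling noise: 89 of 21409 genes differed between the Satb1 siRNA repeats and 59 of 21413 between the NT repeats, against 11758 of 21689 between a Satb1 siRNA library and an NT library of the strong experiment. Each group is therefore counted as 1 sample, and p-values measure the spread between those repeats, which may be technical.

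Total counts were 51710612 and 49022011 in the strong Satb1 siRNA libraries, 67774712 and 71272720 in the strong NT libraries, 24553454 in the weak Satb1 siRNA library and 27029554 in the weak NT library. The targeted gene, Satb1, averaged 3.35 CPM (counts relative to library size, with TMM scaling over all 6 libraries) with Satb1 siRNA and 15.9 CPM with NT siRNA in the strong experiment, a 4.75-fold lower level (edgeR quasi-likelihood test, adjusted p = 1.74e-39). In the weak experiment Satb1 stood at 7.42 CPM with Satb1 siRNA and 8.89 CPM with NT siRNA, a ratio of 0.835 with a 95% counting interval of 0.670 to 1.04. By library size alone the order turned, with 6.72 CPM under Satb1 siRNA and 6.289 CPM under NT siRNA, as did the authors' FPKM of 1.04 with Satb1 siRNA and 0.98 with NT siRNA, so a lower level of the target was not detectable in the weak experiment. The experiments also differed in cell markers. The 12 dendritic cell genes listed, among them Flt3, Zbtb46 and Cd74, summed to 247 and 237 CPM in the strong Satb1 siRNA libraries and 400 and 397 CPM in the strong NT libraries, against 8762 CPM in the weak Satb1 siRNA library and 8966 CPM in the weak NT library. Most of these sums came from Cd74 and H2-Ab1, with 6386 and 1632 CPM in the weak Satb1 siRNA library and 6811 and 1705 CPM in the weak NT library. By gene, 6 of the 12 rose and 6 fell in the strong experiment, and in the weak one 4 were at least 2-fold higher with Satb1 siRNA and 0 lower, with a median log2 ratio of 0.86. Summed macrophage markers ran from 4253 to 11060 CPM over the 6 libraries and exceeded the dendritic cell sum in every library except the weak Satb1 siRNA one.

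As background, NOS2 turns arginine into nitric oxide and citrulline, and the arginases turn the same arginine into ornithine and urea. SLC7A2 carries arginine into the cell, and ASS1 takes the first step in rebuilding it from citrulline. The Irg1 product makes itaconate from cis-aconitate of the citrate cycle, the cyclooxygenases PTGS1 and PTGS2 start prostaglandin synthesis, and PTGES completes prostaglandin E2. IDO1 opens the breakdown of tryptophan to kynurenine. In macrophages and dendritic cells Nos2, Irg1, Ptgs2 and Ptges are classically induced by microbial products and inflammatory cytokines, Ptgs1 is expressed more steadily, and high Arg1 is a familiar feature of myeloid cells in tumours.

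Promoter sequence from RefSeq (GRCm38.p6) was matched for 5 of the 10 genes: Irg1, Ptgs2, Ptges, Ptgs1 and Ass1. The 250 bases before the start of Irg1, Ptgs2 and Ptges are printed because these inducible genes were lower with Satb1 siRNA in both experiments, and those of Ptgs1 because it was the cyclooxygenase that was not. Each is written 5′ to 3′ on the strand of the gene, with the motif matches in capitals.
Irg1 (chr14:103046762-103047011, plus strand): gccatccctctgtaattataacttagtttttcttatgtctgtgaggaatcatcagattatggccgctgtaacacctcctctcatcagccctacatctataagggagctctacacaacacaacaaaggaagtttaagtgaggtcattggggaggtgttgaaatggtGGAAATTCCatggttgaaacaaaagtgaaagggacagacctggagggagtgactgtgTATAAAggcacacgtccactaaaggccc
Ptgs2 (chr1:150099781-150100030, plus strand): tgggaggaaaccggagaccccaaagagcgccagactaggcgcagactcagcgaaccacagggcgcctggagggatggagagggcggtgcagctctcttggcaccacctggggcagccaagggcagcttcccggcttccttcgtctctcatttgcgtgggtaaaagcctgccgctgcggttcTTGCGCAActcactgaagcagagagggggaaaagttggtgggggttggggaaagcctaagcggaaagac
Ptges (chr2:30903298-30903547, minus strand): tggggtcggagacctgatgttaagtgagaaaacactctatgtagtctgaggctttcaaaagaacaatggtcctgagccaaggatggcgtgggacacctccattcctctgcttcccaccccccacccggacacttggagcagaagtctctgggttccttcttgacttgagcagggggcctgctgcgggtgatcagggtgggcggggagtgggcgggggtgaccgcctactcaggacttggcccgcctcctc
Ptgs1 (chr2:36230176-36230425, plus strand): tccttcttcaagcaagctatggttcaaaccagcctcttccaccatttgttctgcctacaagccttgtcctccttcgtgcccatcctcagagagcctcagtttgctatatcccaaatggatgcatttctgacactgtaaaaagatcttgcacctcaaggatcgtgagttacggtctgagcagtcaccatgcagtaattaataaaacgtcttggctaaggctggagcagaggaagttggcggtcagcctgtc
The capitals in Irg1 mark GGAAATTCC, a match to the NF-kappaB-type sequence GGAAANNCC that starts 85 bases before the gene, and TATAAA, which starts 28 bases before it. The capitals in Ptgs2 mark TTGCGCAA, a match to the C/EBP-type sequence TTNNGCAA that starts 69 bases before the gene. Over all 32851 RefSeq promoter windows of this length the NF-kappaB-type sequence was present in 4.93%, the C/EBP-type sequence in 9.56% and the TATA sequence in 7.59%. Also searched were the CRE-type sequence TGACGT (6.47% of windows), the E-box CACGTG (6.02%), the AP-1-type sequence TGANTCA (6.75%) and the tandem GAAA motif of interferon-responsive genes (2.98%). All were searched on both strands except the TATA sequence, which was searched on the strand of the gene, and no printed matches of different motifs overlap. Ptges and Ptgs1 held no match to any of these within the windows shown. The Ass1 window, which is not printed, held the E-box CACGTG, starting 36 bases before the gene. G and C made up 44.4% of the Irg1 window, 61.6% of Ptgs2, 59.6% of Ptges and 48.0% of Ptgs1. These matches describe letters, and no binding was measured.

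The first question was how the enzyme genes stood after Satb1 siRNA where Satb1 was strongly reduced. Of the 10 genes 7 fell, led by Nos2, Irg1 and Ptgs2, the only ones at least 2-fold lower, while Ass1 and Ptgs1 rose and Ido1 was not called (edgeR quasi-likelihood test over 20242 genes, adjusted p below 0.05). Among all genes tested 66.0% were called, 33.2% lower and 32.8% higher, and 3.94% were both called and at least 2-fold lower and 7.46% at least 2-fold higher, beside 3 and 1 of the 10 genes here. The median log2 fold change of the 10 was -0.31, beside 0.01 for all genes tested. Ass1 is the highest of the 10 both as fitted and at its lower bound, so its uncertain size cannot move this median. In these bulk libraries fewer cells that express a gene and less of its RNA per cell cannot be told apart.

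Nos2, the inducible nitric oxide synthase, had 4.76 and 4.45 CPM with Satb1 siRNA, against 15.6 and 15.3 CPM with NT siRNA, in the strong experiment. Its repeats agreed closely and the groups did not overlap. Its level was 3.34-fold lower (log2 fold change -1.74, SE 0.065, edgeR adjusted p = 8.94e-37), place 33 from the most lowered among the 12962 genes whose log2 CPM averaged 1 or more. In the weak experiment Nos2 had 47.7 CPM with Satb1 siRNA and 534 CPM with NT siRNA, from 1061 and 10214 counts. That is an 11.2-fold lower level, with a counting interval of the ratio of 0.0838 to 0.0952, and place 6 of 13700 genes from the most lowered. With 1 library per siRNA the weak experiment has no test, and this interval covers counting error only, not the choice of scaling.

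Slc7a2, the arginine carrier, had 86.7 and 86.0 CPM with Satb1 siRNA and 110 and 111 CPM with NT siRNA in the strong experiment, groups that did not overlap. The fall of 0.35 on the log2 scale was small beside that of Nos2 (SE 0.022, edgeR adjusted p = 1.84e-23). The weak experiment gave 48.6 CPM with Satb1 siRNA and 203 CPM with NT siRNA, a log2 ratio of -2.06 (counting interval -2.16 to -1.96). Ass1, which rebuilds arginine from citrulline, was near the limit of detection throughout. It had 37 and 27 counts with Satb1 siRNA and 0 and 0 counts with NT siRNA in the strong experiment, at least 28.3-fold higher against a floor of 3 counts over the NT group (edgeR adjusted p = 1.49e-14). The weak experiment gave 0 counts with Satb1 siRNA and 1 count with NT siRNA, which allows no comparison. So reads counted for Ass1 came almost entirely from the strong Satb1 siRNA libraries, at 0.63 and 0.48 CPM. The deposited counts for Ass1 join 3 transcript identifiers. Which of them the reads came from, and whether all lie at the Ass1 locus, was not tested.

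Arg1, the cytosolic arginase, was among the most abundant transcripts in every library. By the authors' FPKM, which is per length, it averaged 4817 with Satb1 siRNA and 5163 with NT siRNA in the strong experiment, place 4 and place 5 of 27634 genes, and 1618 with Satb1 siRNA and 2066 with NT siRNA in the weak experiment, place 19 in both. Its CPM of 6234 and 6218 with Satb1 siRNA, against 6956 and 6986 with NT siRNA, gave a fall of 0.16 on the log2 scale in the strong experiment (SE 0.0047, edgeR adjusted p = 0.00115). Without either of the Satb1 siRNA libraries that call was lost (adjusted p = 0.0599 and 0.059). The weak experiment gave 2673 CPM with Satb1 siRNA and 4368 CPM with NT siRNA, a log2 ratio of -0.71, or -0.35 when scaled by library size alone.

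Arg2, the mitochondrial arginase, was far less abundant than Arg1, at 8.87 and 8.77 FPKM with Satb1 siRNA and 9.90 and 10.5 FPKM with NT siRNA in the strong experiment. On the CPM scale it had 11 and 10.92 with Satb1 siRNA and 12.7 and 13.7 with NT siRNA, a fall of 0.26 on the log2 scale (SE 0.054, edgeR adjusted p = 1.98e-05). The groups did not overlap, though the NT repeats lay farther apart than the Satb1 siRNA repeats. In the weak experiment Arg2 stood at 7.74 CPM with Satb1 siRNA and 21.7 CPM with NT siRNA, a log2 ratio of -1.48 from 172 and 415 counts. In the GENCODE annotation of GRCm38, Arg2 overlaps Vti1b and Gm48780, Slc7a2 overlaps Gm26584 and Ptgs1 overlaps Gm43621, each on the opposite strand, and Ptges overlaps the pseudogene Gm13400 on its own strand. No source used here states whether counting used strand, so reads of such partners cannot be told apart from those of the enzyme genes.

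**Figure D1:**
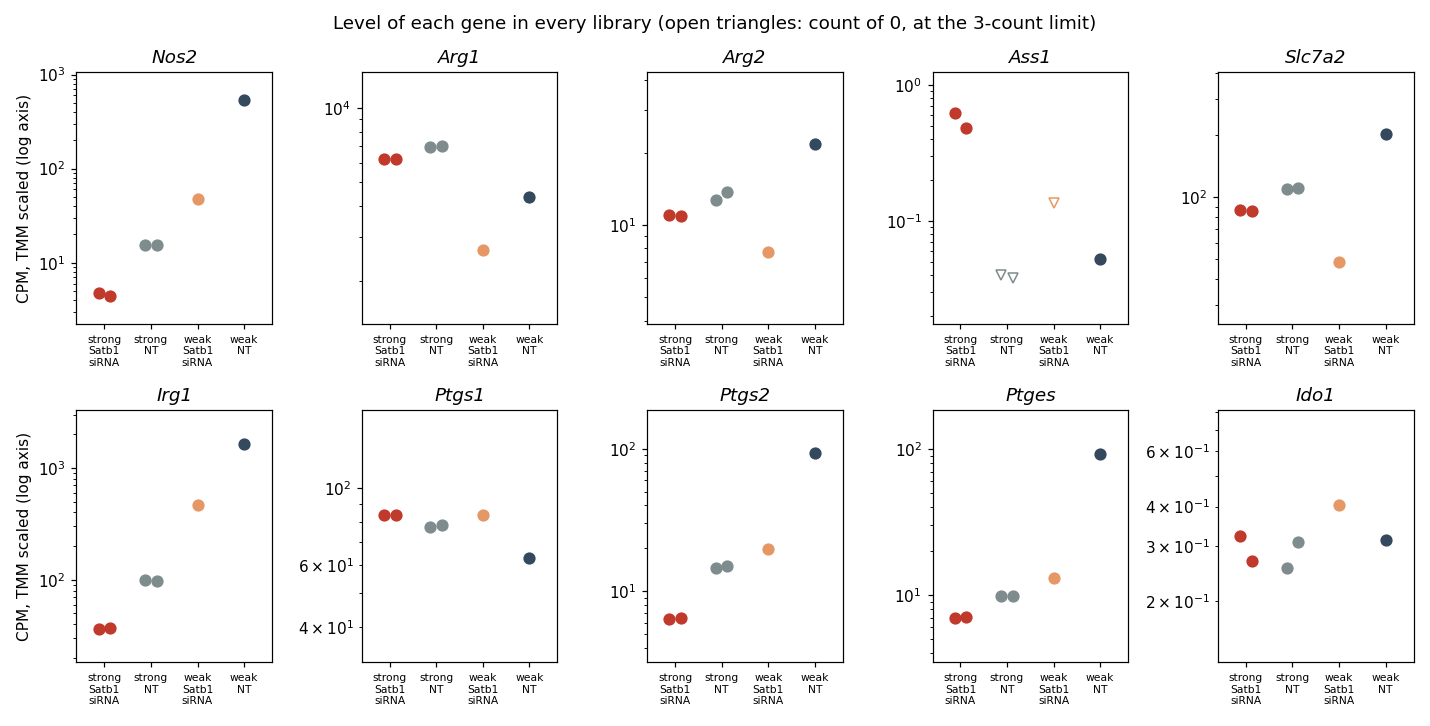
Level of each of the 10 genes in each library, as TMM-scaled CPM on a log axis, with Satb1 siRNA left of NT siRNA within the strong and the weak experiment; points are libraries and open triangles mark a count of 0, drawn at the limit of 3 counts. Nos2 and Irg1 are highest in the weak NT library, at 534 and 1642 CPM, and lowest in the strong Satb1 siRNA libraries, and Arg1 stands at 2673 CPM or more in all 6.

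Nos2 and Arg1 draw on the same arginine, and their balance on the FPKM scale lay far toward Arg1 in all 6 libraries. For every 1000 FPKM of Arg1, Nos2 had 0.274 and 0.258 FPKM with Satb1 siRNA and 0.805 and 0.797 FPKM with NT siRNA in the strong experiment. Its share in the weak experiment was 6.53 FPKM with Satb1 siRNA and 44.7 FPKM with NT siRNA. Thus the ratio was lower with Satb1 siRNA in both experiments, and the weak NT library stood above all others. Set against Arg2, Nos2 was the lower gene in all 4 strong libraries and the higher gene in both weak libraries, at 2160 FPKM per 1000 FPKM of Arg2 with Satb1 siRNA and 8633 with NT siRNA. These ratios carry no test, and they follow from the levels above.

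Irg1, which makes itaconate, was on the FPKM scale the most abundant of Nos2, Irg1, Ptgs2 and Ptges in all 6 libraries. On the CPM scale it had 36.6 and 36.9 with Satb1 siRNA and 98.8 and 97.0 with NT siRNA in the strong experiment, 2.66-fold lower (log2 fold change -1.41, SE 0.026, edgeR adjusted p = 2.38e-56). The weak experiment gave 465 CPM with Satb1 siRNA and 1642 CPM with NT siRNA, 3.53-fold lower with a counting interval of the ratio of 0.277 to 0.289. Irg1 was 0.116% of all counts in the weak NT library, against 0.00419% over the strong Satb1 siRNA libraries. It was place 55 of 12962 genes from the most lowered in the strong experiment and place 91 of 13700 in the weak one.

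Ptgs2, the inducible cyclooxygenase, had 6.32 and 6.47 CPM with Satb1 siRNA and 14.5 and 15.02 CPM with NT siRNA in the strong experiment. The groups were well apart, at a 2.30-fold lower level with Satb1 siRNA (log2 fold change -1.20, SE 0.060, edgeR adjusted p = 3.69e-29). The libraries of the weak experiment had 19.6 CPM with Satb1 siRNA and 93.6 CPM with NT siRNA, 4.77-fold lower with a counting interval of the ratio of 0.188 to 0.233. Ptges, the inducible prostaglandin E synthase that works beside PTGS2, fell less in the strong experiment and stood further apart in the weak one. It had 6.92 and 7.03 CPM with Satb1 siRNA and 9.82 and 9.84 CPM with NT siRNA in the strong experiment (log2 fold change -0.49, SE 0.065, edgeR adjusted p = 5.78e-10). Its level in the weak experiment was 13 CPM with Satb1 siRNA and 92.5 CPM with NT siRNA, 7.11-fold lower and place 12 of 13700 genes from the most lowered.

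Ptgs1, the steadily expressed cyclooxygenase, did not share this drop. It rose by 0.11 on the log2 scale in the strong experiment, with 83.8 and 83.9 CPM under Satb1 siRNA and 77.5 and 78.4 CPM under NT siRNA (SE 0.023, edgeR adjusted p = 3.28e-05). The weak experiment gave 83.9 CPM with Satb1 siRNA and 63.2 CPM with NT siRNA, a ratio of 1.33 (counting interval 1.23 to 1.43). By library size alone these levels were 75.9 and 44.7 CPM, a larger ratio that lies outside this interval. For every 1000 FPKM of Ptgs1 there were 52.2 and 53.8 FPKM of Ptgs2 with Satb1 siRNA and 131 and 134 FPKM with NT siRNA in the strong experiment. The weak experiment had 161 FPKM of Ptgs2 per 1000 FPKM of Ptgs1 with Satb1 siRNA and 1020 FPKM with NT siRNA, so only in the weak NT library was Ptgs2 the higher of the pair. Ptges per 1000 FPKM of Ptgs1 was likewise 52.8 and 51.1 FPKM with Satb1 siRNA and 92.1 and 91.1 FPKM with NT siRNA in the strong experiment, and 121.5 FPKM with Satb1 siRNA and 1147 FPKM with NT siRNA in the weak one.

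**Figure D2:**
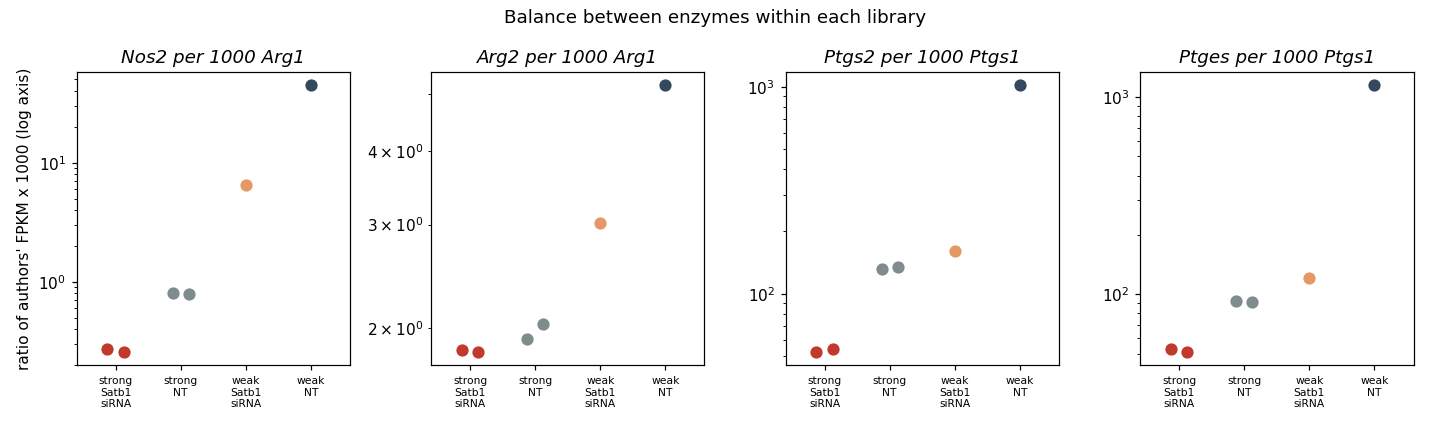
Ratios of the authors' FPKM values within each library, on a log axis, for Nos2 over Arg1, Arg2 over Arg1, Ptgs2 over Ptgs1 and Ptges over Ptgs1, with Satb1 siRNA left of NT siRNA in each experiment. Each ratio is lower with Satb1 siRNA in both experiments and highest in the weak NT library.

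Ido1, which starts tryptophan breakdown, was barely detected: 19 and 15 counts with Satb1 siRNA and 19 and 24 counts with NT siRNA in the strong experiment, and 9 counts with Satb1 siRNA and 6 counts with NT siRNA in the weak one. A change was not detectable at this depth (strong log2 fold change 0.07, SE 0.34, edgeR adjusted p = 0.863). The ratio in the weak experiment was 1.29, with a counting interval of 0.410 to 4.41.

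Over the weak experiment as a whole, 8 of the 10 genes reached an average log2 CPM of 0, and 6 of these were at least 2-fold lower with Satb1 siRNA: Nos2, Ptges, Ptgs2, Slc7a2, Irg1 and Arg2. None was 2-fold higher. Of the 13700 genes at that level 3.64% were at least 2-fold lower and 8.91% at least 2-fold higher. The median log2 ratio of the 8 was -1.94, beside -0.06 for all 13700 genes. Scaling by library size alone shifts that median of all genes to 0.29, and the same 6 of the 10 remained at least 2-fold lower. The folds were then smaller. With Satb1 siRNA and NT siRNA, Nos2 had 43.2 and 378 CPM and Irg1 421 and 1162 CPM. Ptgs2 had 17.8 and 66.2 CPM and Ptges 11.8 and 65.5 CPM.

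**Figure D3:**
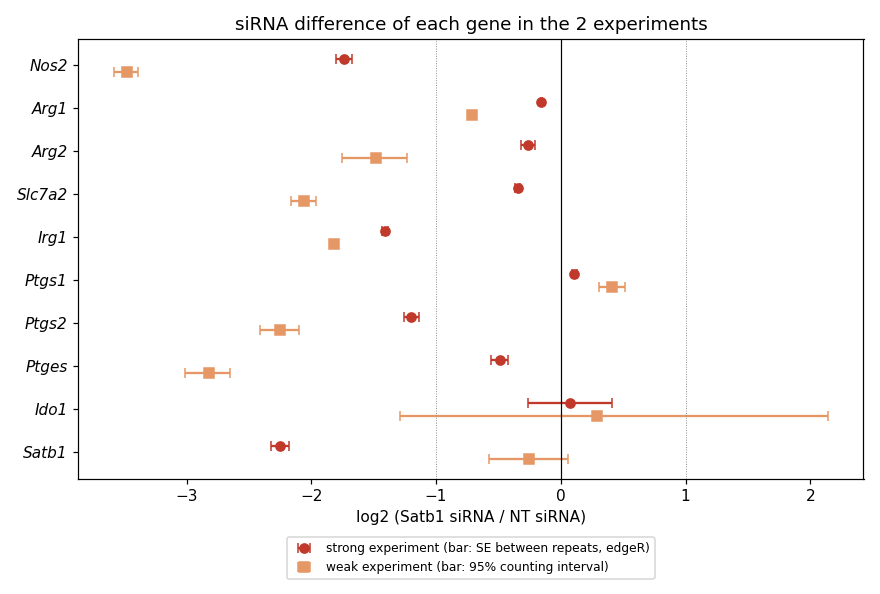
Log2 difference, Satb1 siRNA minus NT siRNA, for each gene in the strong experiment (edgeR log2 fold change, bars 1 SE) and in the weak experiment (log2 ratio of 1 library to 1, bars the 95% counting interval), with Satb1 added and Ass1 left out. The SE is derived from the quasi-likelihood F statistic. Nos2, Irg1, Ptgs2, Ptges, Slc7a2, Arg2 and Arg1 lie below 0 in both experiments, and all 7 lie farther below 0 in the weak one.

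A further question was whether the siRNA effect differed between the experiments. The effect was less negative in the strong experiment for 7 genes, by 1.74 on the log2 scale for Nos2, 2.33 for Ptges, 1.71 for Slc7a2, 1.22 for Arg2, 1.05 for Ptgs2, 0.55 for Arg1 and 0.41 for Irg1 (edgeR interaction test over 20971 genes, adjusted p between 2.30e-51 and 0.00193). With library size alone as scaling the difference was 0.25 for Arg1 and 0.11 for Irg1, still called. Ass1, with next to no counts outside the strong Satb1 siRNA libraries, was called in the same direction, and Ptgs1 was called in the other by -0.30 (adjusted p = 1.61e-05), or -0.60 by library size alone, a call lost with DESeq2 (-0.21, adjusted p = 0.196). Ido1 was not called (edgeR adjusted p = 0.885). Over all genes tested 39.7% were called, 17.9% with a higher and 21.8% with a lower effect in the strong experiment. Differences of at least 2-fold were called for 6 of the 10 genes, all higher, beside 4.51% of all genes higher and 8.16% lower. Satb1 itself went the other way, with a difference of -1.99 (edgeR adjusted p = 6.94e-18). The fit gives the single weak libraries the spread of the strong repeats, which was not measured in them, and the Arg1 call was lost without either strong Satb1 siRNA library (adjusted p = 0.0636 and 0.0643).

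When repeats were summed and the experiments served as the only independent units, the effect over both experiments was estimated with 1 residual degree of freedom. None of the 9 genes that could be tested was called (edgeR quasi-likelihood test, adjusted p), where 6 of 19068 genes, or 0.0315%, were called, all lower. The combined log2 fold change was -1.61 for Irg1 (SE 0.21, edgeR adjusted p = 0.105), -1.72 for Ptgs2 (SE 0.29, edgeR adjusted p = 0.289) and -2.62 for Nos2 (SE 0.55, edgeR adjusted p = 0.465). Before adjustment 4 of the 9 had p below 0.05, namely Nos2, Arg2, Irg1 and Ptgs2. The share of all genes below that p was not computed, so this count has no background to judge it by. DESeq2 on the same summed libraries called 4 of the members lower, namely Nos2, Irg1, Ptgs2 and Ptges. Over all genes it called 121 lower and 54 higher.

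For Nos2, Irg1, Ptges and Ptgs2 the controls of the experiments differed by a larger factor than Satb1 siRNA and NT siRNA did within either experiment. The weak NT library exceeded the summed strong NT libraries 34.6-fold for Nos2, 16.8-fold for Irg1, 9.41-fold for Ptges and 6.33-fold for Ptgs2 (lowest bound of the 4 counting intervals 5.95-fold). Slc7a2 was 1.84-fold and Arg2 1.64-fold higher in the weak NT library, while Arg1 had a log2 ratio of -0.67 and Ptgs1 of -0.30. Of 13700 genes 25.7% were at least 2-fold higher and 22.9% at least 2-fold lower in this comparison, which has no test, and 4 of the 8 genes measured well were at least 2-fold higher. Library size alone moves the median of all genes from 0.07 to -0.56 here, so that the Arg2 log2 ratio becomes 0.09 and the Arg1 ratio -1.30. The experiments differ in samples, cell markers and depth together, and these cannot be told apart.

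Leaving aside Ass1, which is near the detection limit, ordering the 4 groups by level gave 3 patterns that were identical by CPM with or without TMM scaling and by FPKM. Nos2, Irg1, Ptgs2 and Ptges were highest in weak NT, followed by weak Satb1 siRNA, strong NT and strong Satb1 siRNA. Arg2 and Slc7a2 were highest in weak NT, followed by strong NT, strong Satb1 siRNA and weak Satb1 siRNA. For Arg2 the weak NT and strong NT groups were nearly level by FPKM, at 10.69 against 9.90 and 10.53. By library size alone they had 15.35 against 13.94 and 14.97 CPM. Arg1 ran from strong NT through strong Satb1 siRNA and weak NT to weak Satb1 siRNA. The orders of Ptgs1 and Ido1 depended on the scaling, and for Ido1 the counts do not separate any neighbours.

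The genes closest in pattern to 4 of these enzymes were found by Euclidean distance of log2 CPM, centred on each gene's mean over the 6 libraries, among 12311 genes. Nearest to Nos2 were Il6, Tnf, Slpi, Slc2a6 and Ltf, at distances of 1.53 to 1.70, and nearest to Irg1 were Il1b, Tnf, Ltf, Mxd1 and Aldh1b1, at 0.61 to 0.84. Il6, Tnf and Il1b encode inflammatory cytokines, and Ltf a neutrophil granule protein. Il1b, for example, had a log2 fold change of -1.08 in the strong experiment and a log2 ratio of -1.21 in the weak one. Nearest to Ptgs2 were Fosl1, Tarm1, 2310016C08Rik, Niacr1 and Clec4e, at 0.50 to 0.66. Arg1 was followed most closely, at 0.11 to 0.18, by Dnajc19, Trmt11, Tigd2, Tsga10 and a gene whose symbol was altered to a calendar date in the deposited table. The 6 values per gene include repeats that are nearly the same, so these distances are descriptions only.

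Among 15 tested genes of nitric oxide and arginine supply in the strong experiment 10 fell and 2 rose, beside 33.2% of all genes lower and 32.8% higher, with a median log2 fold change of -0.21. Slc3a2, the heavy chain shared by several amino acid carriers, fell by 0.61 on the log2 scale, and Asl, which works after ASS1 to release arginine, fell by 0.50. Prmt1, an arginine methyltransferase, fell by 0.54. Pts, an enzyme that makes the cofactor of nitric oxide synthase, rose by 0.61. The largest edgeR adjusted p among these 4 was 1.24e-14. In the weak experiment 13 of the list were measured at the minimum level, with 1 at least 2-fold higher (Ddah1, named after its value was seen), 0 lower and a median of 0.13 (0.48 by library size alone), so the list's median had the other sign there.

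Downstream of the arginases, 7 of 15 ornithine and polyamine genes fell and 2 rose in the strong experiment (all genes, 33.2% and 32.8%), with a median of -0.08. Smox, spermine oxidase, fell by 0.69, Odc1, the enzyme that turns ornithine into putrescine, by 0.54 and Gatm, which uses arginine to begin creatine synthesis, by 0.40, while Pycr1, an enzyme of proline synthesis, rose by 0.40 (edgeR adjusted p at most 6.55e-07). The weak experiment had a median of -0.17 over 14 genes, or 0.18 by library size alone, with only Pycr1 past 2-fold, from 30 counts with Satb1 siRNA and 4 with NT siRNA. Around itaconate, 13 of 21 citrate cycle genes fell and 3 rose in the strong experiment (all genes, 33.2% and 32.8%), with a median of -0.16. Mdh2, a malate dehydrogenase, fell by 0.51, the succinate dehydrogenase subunits Sdhc and Sdhb by 0.50 and 0.37, and Clybl, a mitochondrial lyase, by 0.48 (edgeR adjusted p at most 9.35e-09). None of the 21 reached 2-fold in the weak experiment, and the median was -0.00215, or 0.35 by library size alone.

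Prostaglandin and leukotriene genes did not move as a group: of 28 tested in the strong experiment 10 rose and 7 fell (all genes, 32.8% and 33.2%), with a median of -0.02, or 0.04 by library size alone. Ptgr1, an enzyme that acts on prostaglandins and leukotriene B4, fell by 0.88 on the log2 scale in the strong experiment. It had 43.0 and 43.4 CPM with Satb1 siRNA there and 79.4 and 80.6 CPM with NT siRNA. Its log2 ratio in the weak experiment was -0.87. Ptgir, the prostacyclin receptor, fell by 0.63 in the strong experiment and had a log2 ratio of -1.03 in the weak one. The leukotriene genes Ltc4s and Alox5 differed between the experiments. Ltc4s, leukotriene C4 synthase, rose by 1.02 in the strong experiment, with 14.6 and 14.2 CPM under Satb1 siRNA and 7.003 and 7.254 CPM under NT siRNA, but had 5.31 CPM with Satb1 siRNA and 11.2 CPM with NT siRNA in the weak one (edgeR interaction test, adjusted p = 2.85e-21). Alox5, which makes the leukotriene precursor, rose by 0.50 in the strong experiment and had a log2 ratio of -1.27 in the weak one (edgeR interaction test, adjusted p = 2.13e-30). Of 25 genes measured in the weak experiment 4 were at least 2-fold lower (Ltc4s, Alox5, Ptgir and Ptgdr) and 2 at least 2-fold higher (Ptgds and Ptgis). The Ptgdr ratio rests on 0 counts with Satb1 siRNA and 6 counts with NT siRNA, near the detection limit. The median of the 25 was -0.345, or 0.01 by library size alone. Ptgdr, Ptgds and Ptgis were named after their values were seen.

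Of 13 tryptophan and kynurenine genes 7 rose in the strong experiment and 3 fell (all genes, 32.8% and 33.2%), with a median of 0.31, and the weak median over 11 genes was 0.51, or 0.80 by library size alone, with none past 2-fold under TMM scaling. Kynu and Haao, enzymes of kynurenine breakdown, rose by 0.351 and 0.455 in the strong experiment, while Wars, the tryptophan tRNA ligase, fell by 0.43 and Ccbl2, an aminotransferase of kynurenine, fell by 0.50 (edgeR adjusted p at most 0.0021). Of the regulators and receptors that act on the inducible enzymes, 17 of 21 fell and 3 rose in the strong experiment (all genes, 33.2% and 32.8%), with a median of -0.24. Csf2rb, the shared chain of the GM-CSF receptor, fell by 0.62, Il4ra, a chain of the IL-4 receptor, by 0.57, and Rela, an NF-kappaB subunit, by 0.35, while Klf4, a transcription factor, rose by 0.58 (edgeR adjusted p at most 6.08e-13). The weak median over all 21 was -0.40, or -0.04 by library size alone, with 1 gene (Cebpb, named after its value was seen) at least 2-fold lower. Cebpb, a C/EBP family transcription factor, fell by 0.22 in the strong experiment (edgeR adjusted p = 9.37e-14).

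**Figure D4:**
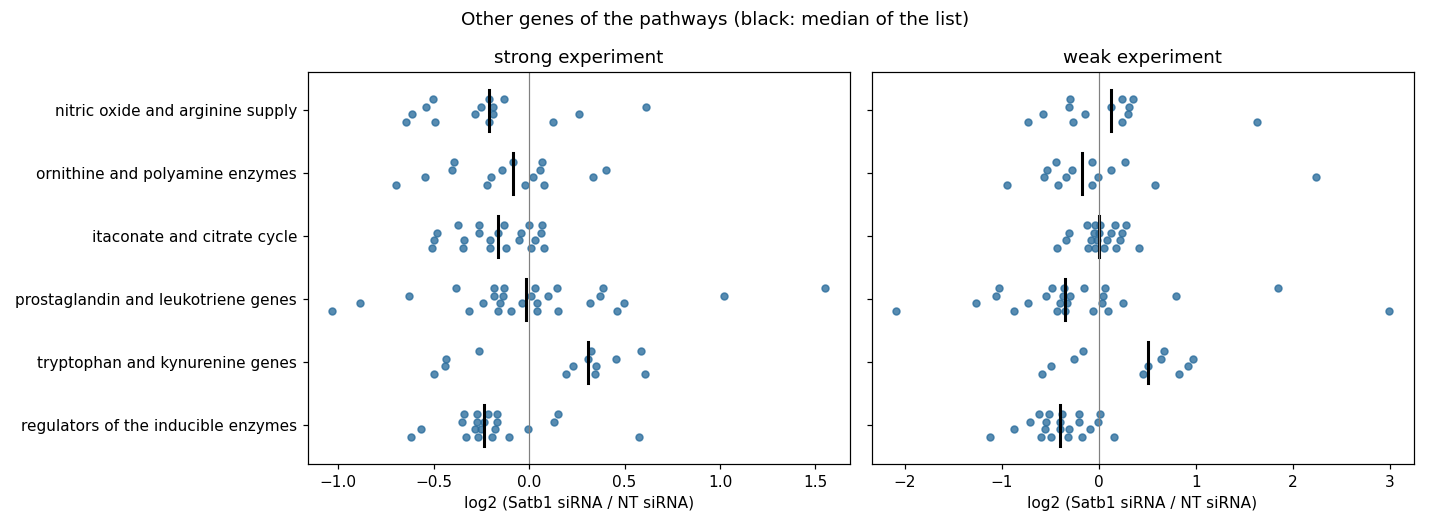
Log2 difference, Satb1 siRNA minus NT siRNA, for each gene of the 6 pathway lists in the strong and in the weak experiment; short lines are list medians. The median is -0.24 for the regulators and 0.31 for the tryptophan genes in the strong experiment.

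Cell markers were set beside these results because sorting is not described. Summed neutrophil markers were 76.0 and 76.7 CPM with Satb1 siRNA and 68.2 and 67.5 CPM with NT siRNA in the strong experiment, and 127 CPM with Satb1 siRNA and 442 CPM with NT siRNA in the weak one, where 7 of 8 measured markers were at least 2-fold lower with Satb1 siRNA. In the strong experiment 3 of the 8 rose and 3 fell, and of all 10 genes on the list at most 1 was at a count of 0 in any library. Summed macrophage markers were 4404 and 4388 CPM with Satb1 siRNA and 4265 and 4253 CPM with NT siRNA in the strong experiment, against 7325 CPM with Satb1 siRNA and 11060 CPM with NT siRNA in the weak one, and 7 of 12 rose and 4 fell in the strong experiment. Monocyte markers summed to 4872 and 4855 CPM with Satb1 siRNA and 3903 and 3916 CPM with NT siRNA in the strong experiment, and 3505 CPM with Satb1 siRNA and 5407 CPM with NT siRNA in the weak one. Markers of tumour, epithelial and mesothelial cells summed to 696 CPM with Satb1 siRNA and 198 CPM with NT siRNA in the weak experiment, where 9 of 10 were at least 2-fold higher, and to 993 and 985 CPM with Satb1 siRNA and 897 and 901 CPM with NT siRNA in the strong one. By gene, 4 of the 8 monocyte markers rose and 3 fell in the strong experiment. Platelet and megakaryocyte markers summed to 493 and 492 CPM with Satb1 siRNA and 631 and 634 CPM with NT siRNA in the strong experiment, and to 312 CPM with Satb1 siRNA and 578 CPM with NT siRNA in the weak one, and thus were lower with Satb1 siRNA in both, like Nos2, Irg1, Ptgs2 and Ptges. The weak NT library, highest in those 4 genes, was on this scale also highest in the neutrophil, macrophage, monocyte, dendritic cell and B cell sums. That order depends in part on its low TMM factor, 0.7076, against 0.9052 in the weak Satb1 siRNA library and 1.141 in the strong Satb1 siRNA libraries. By library size alone the weak NT library stays highest in the neutrophil and macrophage sums, but not in the monocyte, dendritic cell and B cell sums. In the strong experiment the neutrophil, macrophage and monocyte sums were higher with Satb1 siRNA than with NT siRNA, and the dendritic cell and platelet sums were lower. Over the 6 libraries fibroblast and endothelial markers summed to 128 to 270 CPM, T cell markers to 24.2 to 50.6 CPM, B cell markers to 16.5 to 33.7 CPM and mast cell markers to 0.376 to 2.43 CPM. The part of these cell types in the enzyme results was not tested.

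**Figure D5:**
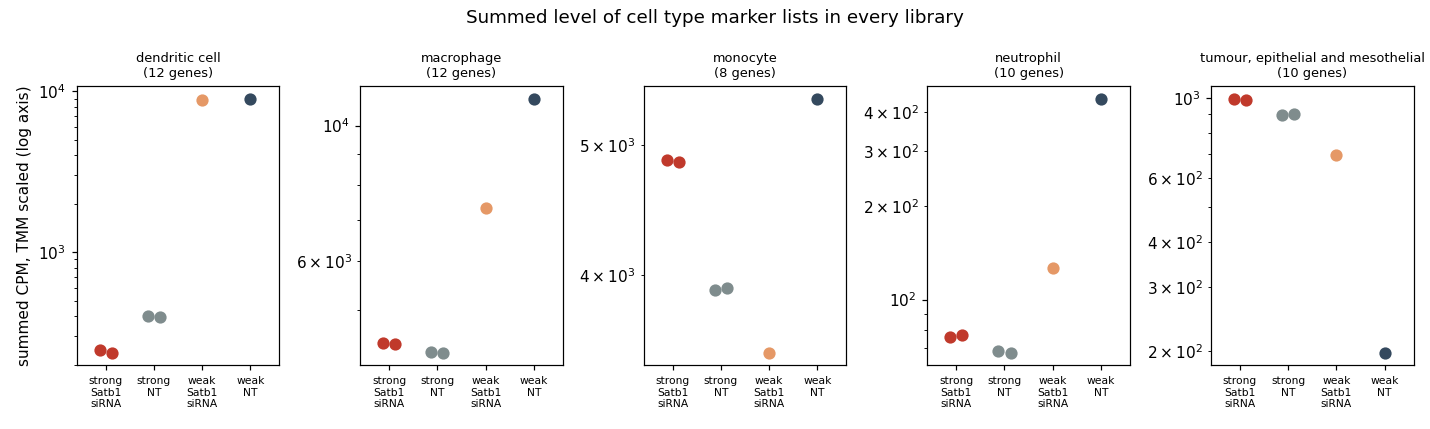
Summed CPM of the markers of dendritic cells, macrophages, monocytes, neutrophils and tumour, epithelial and mesothelial cells in each library, on a log axis, with Satb1 siRNA left of NT siRNA in each experiment. Dendritic cell markers sum to at most 400 CPM in the strong libraries and to at least 8762 CPM in the weak ones, and neutrophil markers are highest in the weak NT library at 442 CPM.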

How the data were processed

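RNA-seq was made from total RNA (Trizol, TruSeq Stranded Total RNA kit, per the labels' protocols) of 6 libraries in 4 groups. The deposited table has, per the file headers, 1 column of counts and 1 of FPKM per library, over 27634 genes. The counts are taken for estimated counts, made by the authors with RSEM 1.2.12, which the submitters' processing notes name beside DESeq2 and the build mm9. The authors' FPKM values, relative to gene length and library size, were used only to compare levels between genes. The aligner, any filters and the use of strand were not given in the sources used here.

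Counts, whole as deposited, were tested in R 4.3.3 with edgeR 4.0.16 (quasi-likelihood, TMM, filterByExpr, two-sided, Benjamini-Hochberg adjustment over all genes tested, threshold 0.05). The strong experiment was fitted on its 4 libraries, the difference of effects on 4 group means over 6 libraries, and the effect over both experiments on summed repeats with experiment as a term. Each SE given with an edgeR test is the absolute log2 fold change divided by the square root of the quasi-likelihood F statistic. It was not estimated separately, and it does not by itself give the p-value. The weak experiment and the controls have ratios without a test (prior count 2). Their exact 95% Clopper-Pearson intervals cover counting error only, not the choice of scaling. Where no read was counted, a level of up to 3 counts (0.0385 to 0.157 TMM-scaled CPM) is allowed. Same-numbered libraries of the strong experiment did not deviate together (r = -0.0107 across 12319 genes), and the main fit used no pairing. Because repeats differed by little more than sampling noise, this check cannot tell whether the numbers pair the samples.

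The members and the 16 lists (6 of pathways, 10 of cell types) were chosen with earlier results of these data known. Of 214 list entries 207 matched a gene of the table, 6 of them by an older symbol. Genes named beyond the members are Satb1, the 4 genes of each pathway list with the largest absolute log2 fold change in the strong experiment at a mean log2 CPM of at least 1, and the 5 genes nearest in pattern to each of Nos2, Arg1, Irg1 and Ptgs2, together with cell type markers that carry or show a marker sum. Ddah1, Cebpb, Ptgdr, Ptgds and Ptgis fall outside this rule and were named after their values were seen. Alternatives were RLE scaling, library size alone, no filter, DESeq2 1.42.0, a prior count of 0.5, a replicate block and each repeat left out. Scripts were tested on simulated data.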

Additional observations from a re-analysis of the deposited data

Results flagged for a closer look

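The siRNA effect differed between the strong and the weak experiment for 9 of the 10 genes by the edgeR interaction test, adjusted over all genes tested. Among all genes 39.7% were called in this test, 17.9% with a higher and 21.8% with a lower effect in the strong experiment. As strong minus weak on the log2 scale, the difference was 1.74 for Nos2, 0.55 for Arg1, 1.22 for Arg2, 1.71 for Slc7a2, 0.41 for Irg1, 1.05 for Ptgs2 and 2.33 for Ptges, each less negative in the strong experiment, where Satb1 itself was lowered further. The fitted difference for Ass1 was 12.3, which depends on the prior count and is no bound, since only 1 count lay outside the strong Satb1 siRNA libraries. Ptgs1 had a difference of -0.30, not called with DESeq2 (-0.21, adjusted p = 0.196). The Arg1 call was lost without either strong Satb1 siRNA library (edgeR adjusted p = 0.0636 and 0.0643). The weak libraries have no repeat, and their spread was taken from the strong repeats.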

How the results depend on the processing

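In the strong experiment 7 of the 10 genes were lower and 2 higher under TMM, RLE, library size alone, no filter, DESeq2 and the fit over 6 libraries. With the replicate block the members' counts were likewise 2 higher and 7 lower, with 6584 genes higher and 6664 lower. Leaving out 1 repeat in turn gave 6 to 7 members lower, 5787 to 5867 genes higher and 6155 to 6239 lower, against 6645 and 6722. DESeq2 called 4175 genes higher. The log2 fold change of Ido1, which was not called, ranged from -0.067 to 0.206 with 1 repeat left out, and was -0.0582 without the first NT repeat and -0.067 without the first Satb1 siRNA repeat.

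For the difference of effects, library size alone called 1742 genes higher and 8339 lower and DESeq2 2402 and 1374, against 3756 and 4564. Leaving out 1 repeat gave 3650 to 3761 higher and 4316 to 4491 lower, with 7 to 8 members higher. DESeq2 called 0 members lower, with Ptgs1 at -0.21 (adjusted p = 0.196).

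With repeats summed, genes called higher were 0 in the edgeR fit, 259 by library size alone, 69 without a filter and 54 by DESeq2. Genes called lower were 6, against 22 by RLE, 87 by library size alone, 232 without a filter and 121 by DESeq2. Members called lower were 0, against 1, 5, 2 and 4 under the same alternatives. The cause of these shifts was not tested.

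In the weak experiment library size alone gave 1910 genes at least 2-fold higher and 229 lower, against 1220 and 499, and 6 members were at least 2-fold lower under every alternative run. Between the controls it gave 1973 higher and 5097 lower, against 3524 and 3131, with 1 member (Arg1) at least 2-fold lower.

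Each group counts as 1 sample, so the tests compare libraries. The weak libraries are the shallowest and lack repeats, and Ass1 and Ido1 lie near the detection limit.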
